A study of Homo sapiens with 14 samples.

Results

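The p53 pathway was followed through 32 genes named as p53 target genes or close partners of p53, a list set by gene symbol. All 32 were found among the 61541 Ensembl genes of the RNA count table. p53 is a transcription factor that is held low by ubiquitination, is stabilised by DNA damage and other stress, and binds DNA as a tetramer at response elements made of a pair of 10-base units. Its targets include its own inhibitors, brakes of the cell cycle, DNA repair enzymes, redox and metabolic enzymes, death and survival factors, and secreted or surface proteins.

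RNA was sequenced at day 3 from cells labelled BxPC-3, a human pancreatic carcinoma cell line. There were 3 libraries labelled shHDAC5 (genotype given as HDAC5 knockdown, a short hairpin RNA against histone deacetylase 5). Another 3 libraries were labelled shControl (genotype given as WT). GATA1 binding was mapped by ChIP-seq in PANC-1, another pancreatic carcinoma line, also at day 3, with 1 deposited peak list labelled shHDAC5 and 1 labelled shControl, each tied to 2 immunoprecipitations and 2 inputs. The labels do not state that replicate libraries were grown as separate cultures. The spread behind each p-value is that between these libraries, which may be technical. Nor do the labels say how many hairpins or clones were used.

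Total counts were 15935649 to 16889876 in the libraries labelled shHDAC5 and 15179758 to 17854340 in those labelled shControl. HDAC5 itself went against its label, with 161.8, 161.2 and 169.2 CPM (counts scaled to depth, over TMM-scaled library sizes) in the libraries labelled shHDAC5, against 95.38, 91.73 and 97.65 CPM in those labelled shControl (log2 fold change 0.79 ± 0.0358 SE, adjusted p = 3.95e-40, edgeR). Every direction in the RNA data is therefore given by label only. The epithelial keratins KRT8 and KRT18 were abundant in both groups, while KRT19 had 0 to 3 counts per library and EPCAM and CDH1 16 to 42 counts. KRT7 averaged 25.34 ± 0.445 CPM in libraries labelled shHDAC5 and 371.1 ± 9.72 CPM in those labelled shControl, and MUC1 11.27 ± 1.23 CPM in libraries labelled shHDAC5 and 166.2 ± 3.49 CPM in those labelled shControl (SD, n = 3 each). Of 7 epithelial markers 1 rose and 3 fell (KRT7, KRT18 and MUC1), and their summed CPM ranged over 1340 to 1410 in the libraries labelled shHDAC5 and 1640 to 1670 in those labelled shControl. Of 6 leukocyte markers 2 rose, ITGAM and CD14, and the sum was 7.83 to 9.46 CPM in libraries labelled shHDAC5 and 3.32 to 4.19 CPM in those labelled shControl, with PTPRC at 0 to 3 counts. Of 5 endothelial markers 1 rose, VWF, and the sum was 3.58 to 4.18 CPM in libraries labelled shHDAC5 and 1.21 to 1.48 CPM in those labelled shControl, with KDR at 0 to 2 counts. Of 8 fibroblast markers 1 rose and 3 fell, with a sum of 87.7 to 93.3 CPM in libraries labelled shHDAC5 and 124 to 133 CPM in those labelled shControl. ITGAM, CD14 and VWF passed the filter on low counts only through the libraries labelled shHDAC5, with 0 to 4 counts in each library labelled shControl. The part of these differences in the results on p53 target genes was not tested.

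Promoter sequences are shown first for 5 members. That of DDB2 is shown because it held a complete p53 response element, and those of GDF15, POLH, SESN2 and TP53I11 because a GATA1 peak summit lay within 1 kb of the transcript start in both peak lists. Each runs from 250 bases before to 50 bases from the start of the transcript onwards, as 300 bases of RefSeq sequence on GRCh38.p14, written 5′ to 3′ on the gene's strand. Capitals mark the p53 units in DDB2 (chr11:47214724-47215023, plus strand). In GDF15 (chr19:18385908-18386207, plus), POLH (chr6:43575935-43576234, plus), SESN2 (chr1:28259268-28259567, plus) and TP53I11 (chr11:44950834-44951133, minus) the capital is the first base of the transcript.
DDB2: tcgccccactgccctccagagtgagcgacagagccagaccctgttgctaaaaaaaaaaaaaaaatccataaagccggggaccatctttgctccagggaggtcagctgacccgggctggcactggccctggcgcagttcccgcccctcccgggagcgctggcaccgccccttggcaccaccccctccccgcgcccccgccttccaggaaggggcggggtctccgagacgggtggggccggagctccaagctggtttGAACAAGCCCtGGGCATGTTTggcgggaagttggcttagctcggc
GDF15: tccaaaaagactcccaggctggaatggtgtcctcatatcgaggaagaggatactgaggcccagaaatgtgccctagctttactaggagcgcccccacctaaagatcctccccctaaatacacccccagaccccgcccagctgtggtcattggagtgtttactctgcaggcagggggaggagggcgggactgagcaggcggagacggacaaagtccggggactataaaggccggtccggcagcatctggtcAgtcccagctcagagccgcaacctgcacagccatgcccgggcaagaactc
POLH: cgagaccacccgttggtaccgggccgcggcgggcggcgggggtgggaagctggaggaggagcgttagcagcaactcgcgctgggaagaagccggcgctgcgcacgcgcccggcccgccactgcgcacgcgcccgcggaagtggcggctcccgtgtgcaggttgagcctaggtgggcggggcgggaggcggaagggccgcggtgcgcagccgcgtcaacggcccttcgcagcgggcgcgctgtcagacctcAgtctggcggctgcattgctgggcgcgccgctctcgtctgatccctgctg
SESN2: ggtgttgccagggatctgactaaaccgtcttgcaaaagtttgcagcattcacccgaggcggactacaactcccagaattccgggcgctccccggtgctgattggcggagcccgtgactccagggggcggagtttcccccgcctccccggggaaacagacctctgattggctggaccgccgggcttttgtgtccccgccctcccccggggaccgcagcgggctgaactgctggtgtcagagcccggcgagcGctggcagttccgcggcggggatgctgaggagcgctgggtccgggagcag
TP53I11: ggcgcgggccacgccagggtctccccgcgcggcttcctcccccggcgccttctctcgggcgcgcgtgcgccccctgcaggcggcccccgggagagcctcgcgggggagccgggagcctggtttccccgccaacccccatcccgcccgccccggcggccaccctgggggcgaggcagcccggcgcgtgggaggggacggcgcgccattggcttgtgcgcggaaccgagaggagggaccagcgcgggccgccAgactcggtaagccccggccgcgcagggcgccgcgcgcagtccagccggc

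The DDB2 promoter carried a p53 pair with a spacer of 1 base and no mismatch and its first base at position +6, counting the first base of the transcript as +1. Of 15843 coding genes with a promoter in the table, 4 held such a complete pair (0.0252%), with both 10-base units matching the p53 consensus and at most 13 bases between them. A looser search allowed at most 2 mismatches in an uninterrupted 20-base pair, but none at the invariant C and G of each unit. With it, 3 of the 28 members with a promoter had a match (10.7%), against 0.341% of coding genes. The members were listed as p53 target genes or partners, so this contrast partly restates how the list was made. It was not tested, and the mismatch allowance was chosen after the promoter table was seen. The matches in MDM2 (chr12:68808923-68808942, plus strand) and AEN (chr15:88621306-88621325, plus strand) are shown because they belong to the feedback inhibitor and to a death-related nuclease, with mismatched bases in lower case.
MDM2: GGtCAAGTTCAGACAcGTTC
AEN: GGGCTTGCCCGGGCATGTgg

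In DDB2 the match with mismatches overlapped the first unit of its complete pair. A single 10-base unit without mismatch occurred in the promoters of 5 members (17.9%), AEN, DDB2, FDXR, PLK2 and SESN1. The share over coding genes was 8.07%, a contrast that also partly restates how the list was made. The GATA motif (GATAA or GATAG with A or T in front, on either strand) occurred in 5 members, BTG1, CCNG1, MDM4, PLK3 and SESN1 (17.9%), and in 24.6% of coding genes. None of the 5 promoters printed above held it. These are matches of letters in a window of 300 bases per transcript start and say nothing about binding, here or elsewhere in the gene.

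The first comparison asked how RNA of the p53 target genes differed between the libraries labelled shHDAC5 and those labelled shControl. Growth arrest genes were mostly higher in the libraries labelled shHDAC5, led by PLK2 and GADD45A, and so were the metabolic genes TIGAR, FDXR and SESN1. PHLDA3 and PERP, linked to cell death and survival, the repair gene DDB2 and the inhibitor MDM2 were lower. Each role held only 4 to 9 genes, and differences between a role and all genes were not tested. Of the 32 members, 29 passed the filter on low counts, and 14 of these rose and 9 fell with the threshold at an adjusted p of 0.05 (quasi-likelihood test of edgeR, Benjamini-Hochberg adjustment over 19181 genes). That is 79.3% called, against 84.7% of all genes tested. TP53I11, counted among the 14, passed the filter only through the libraries labelled shHDAC5 and so had to differ. Members that rose made up 48.3%, against 44.8% of all genes, and those that fell 31%, against 39.9%. A change of at least 2-fold with an adjusted p under 0.05 was found for 7 members that rose and 2 that fell, or 31% of the 29 tested, against 46.5% of all genes in either direction. In 25 of the 29 tested members (86.2%) the CPM of the groups did not overlap, against 84.8% of all genes tested. The median log2 fold change was 0.06 over the members tested and 0.09 over all genes tested, and the median of its size was 0.61 and 0.91. The shares called and without overlap lie close to the background, in a table with most genes called. The share past 2-fold and the median size of change were below those of all genes, a difference that was not tested.

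With upper-quartile factors or total counts in place of TMM, 18 members rose and 7 fell, so that 72% of called members were higher, against 60.9% with TMM. Over all genes tested the same share was 58.1% with upper-quartile factors and 59.6% with total counts, against 52.9% with TMM. These scalings moved the median log2 fold change of all genes by 0.14 and 0.18. In bulk RNA, fewer cells expressing a gene and less of its RNA per cell cannot be told apart.

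**Figure D1:**
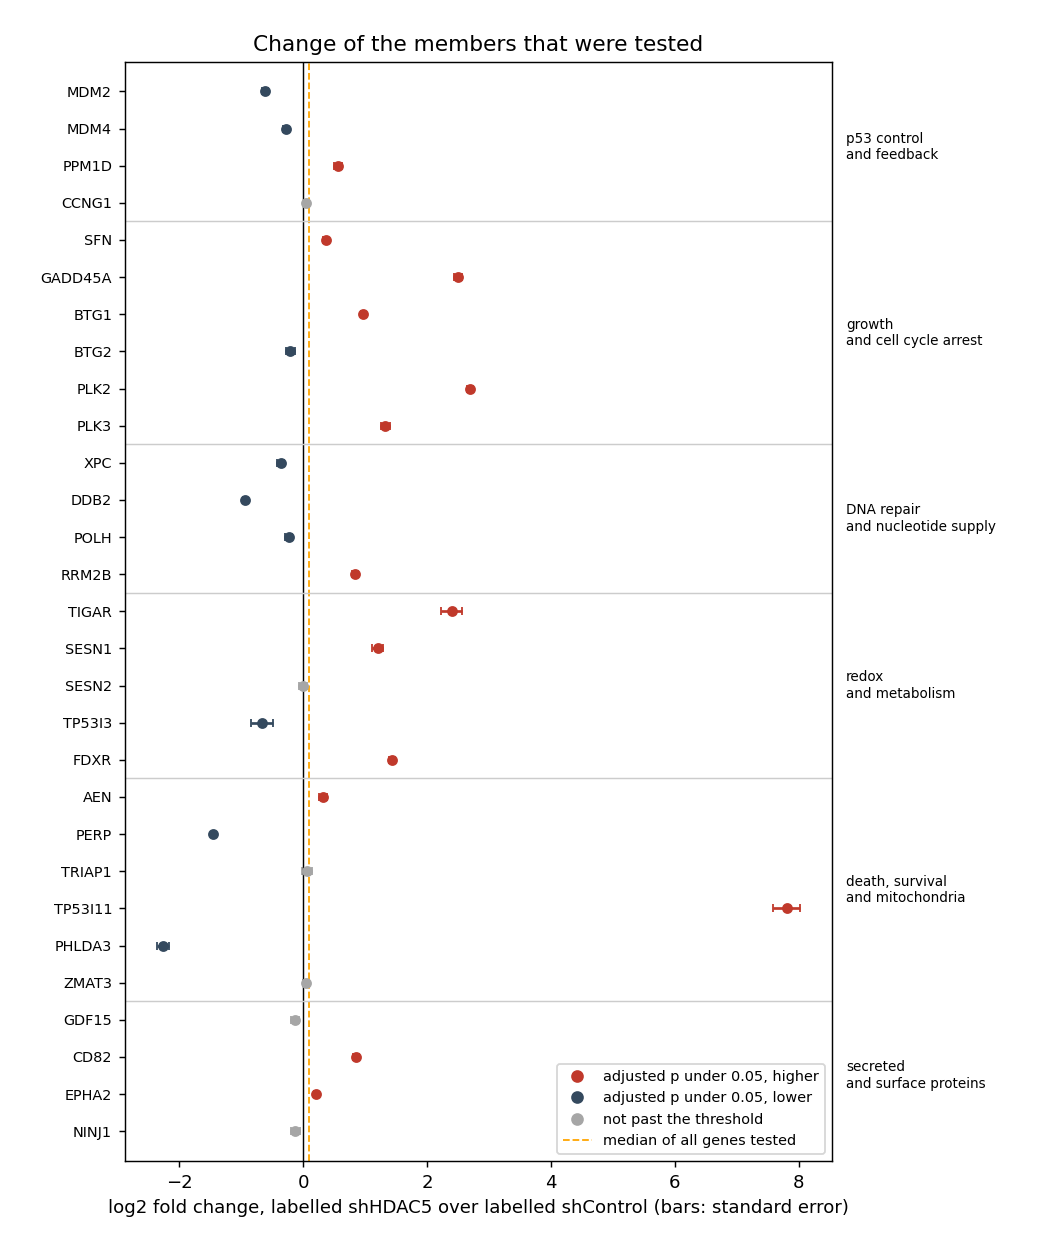
The log2 fold changes of the 29 tested members, libraries labelled shHDAC5 over those labelled shControl, are plotted by role with standard errors from edgeR. TP53I11, which passed the filter on low counts only through the libraries labelled shHDAC5, lies far above the others, PLK2, GADD45A and TIGAR lie above 2, and PHLDA3 lies below -2.

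Set per kilobase of gene model, the highest mean levels in the libraries labelled shHDAC5 were 108.4 ± 5.83 CPM per kilobase for SFN (SD, n = 3), then 57.34 ± 2.8 for CCNG1, 46.31 ± 1.75 for EPHA2, 44.95 ± 2.08 for GADD45A and 44.0 ± 1.28 for PERP. The last 3 of these did not differ beyond their spread. In the libraries labelled shControl, PERP was the highest at 120.5 ± 3.45 CPM per kilobase, followed by SFN at 84.31 ± 0.997, CCNG1 at 55.66 ± 2.28, EPHA2 at 40.24 ± 0.375 and DDB2 at 35.03 ± 0.484. GADD45A had 7.941 ± 0.621 CPM per kilobase there. Together the 32 members took 0.205 to 0.209% of counts in the libraries labelled shHDAC5 and 0.179 to 0.182% in those labelled shControl.

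**Figure D2:**
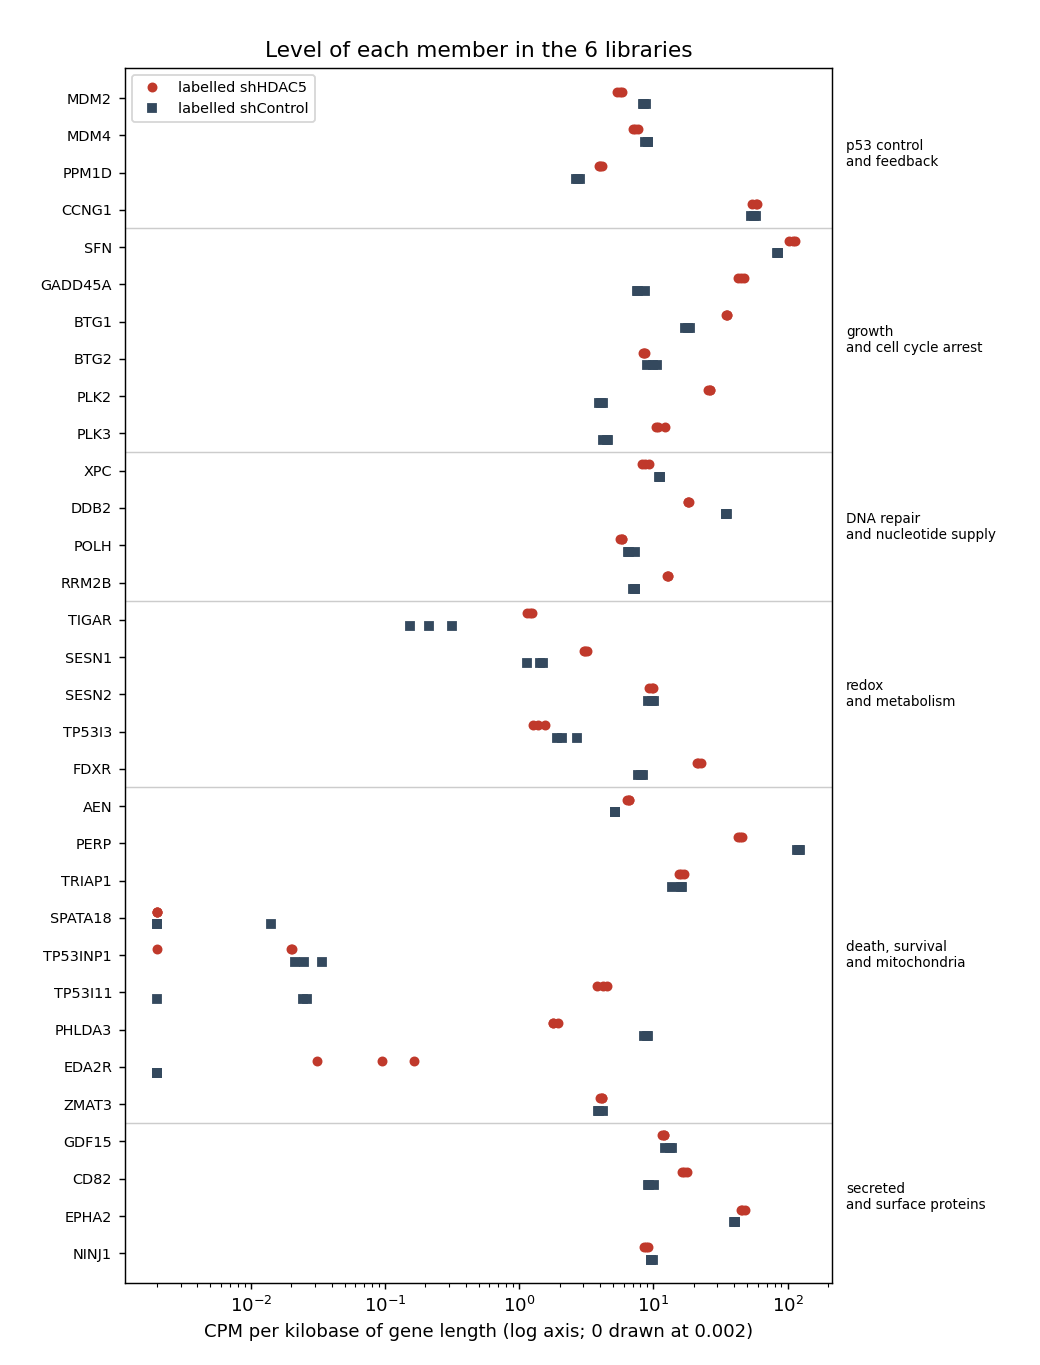
CPM per kilobase of each member in each library is plotted on a log axis, with libraries labelled shHDAC5 and shControl in separate colours and values of 0 at the left edge. For most members the 3 libraries of a group lie close together, and TP53I11 and EDA2R are near 0 in the libraries labelled shControl.

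Among the genes that restrain p53 or feed back on it, 1 of 4 rose, 2 fell and CCNG1 did not pass the test. These shares were 25% and 50%, against 44.8% higher and 39.9% lower over all genes tested. MDM2 (ENSG00000135679, chr12:68808172-68850686, hg38), the ubiquitin ligase that marks p53 for degradation and is itself induced by p53, had 44.33, 48.49 and 46.51 CPM in the libraries labelled shHDAC5, against 72.92, 69.59 and 70.79 CPM in those labelled shControl. All 3 libraries labelled shHDAC5 lay below all 3 labelled shControl, and MDM2 fell by 0.61 ± 0.049 (SE) on the log2 scale (adjusted p = 5.1e-22, edgeR). Its relative MDM4, which binds p53 and blocks its activation domain, fell less, averaging 80.87 ± 3.23 CPM in libraries labelled shHDAC5 and 98.33 ± 3.18 CPM in those labelled shControl (SD, n = 3 each), a log2 fold change of -0.28 ± 0.0409 (SE). PPM1D (ENSG00000170836, chr17:60600193-60666280), the phosphatase WIP1 that removes activating phosphates from p53 and its kinases, had 39.24, 37.27 and 37.79 CPM in the libraries labelled shHDAC5, against 25.87, 26.9 and 24.93 CPM in those labelled shControl. The groups did not overlap, and PPM1D rose with a log2 fold change of 0.56 ± 0.0652 (SE, adjusted p = 2.3e-13, edgeR). CCNG1 (ENSG00000113328, chr5:163437571-163457640), cyclin G1, had 180.1, 167.9 and 184.7 CPM in the libraries labelled shHDAC5, against 164.9, 173.0 and 179.0 CPM in those labelled shControl. These ranges overlapped (log2 fold change 0.04 ± 0.0331 SE, adjusted p = 0.221, edgeR), and CCNG1 passed the threshold with DESeq2's size factors (0.07, adjusted p = 0.0318), upper-quartile factors (0.18) and total counts (0.23).

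Of the 6 growth arrest genes, 5 rose (83.3%, against 44.8% of all genes tested) and BTG2 fell (16.7%, against 39.9%). PLK2 (ENSG00000145632, chr5:58453982-58460086), a stress-responsive polo-like kinase, had 119.5, 121.8 and 123.6 CPM in the libraries labelled shHDAC5, against 18.21, 19.49 and 18.77 CPM in those labelled shControl. Without overlap between groups, this was a 6.465-fold difference in the edgeR fit, or a log2 fold change of 2.69 ± 0.0523 (SE, adjusted p = 3.08e-74, edgeR). GADD45A, a growth arrest and damage protein that binds PCNA and inhibits the mitotic kinase CDK1, averaged 86.53 ± 4 CPM in libraries labelled shHDAC5 and 15.29 ± 1.2 CPM in those labelled shControl (SD, n = 3 each), a log2 fold change of 2.50 ± 0.0607 (SE). PLK3, a relative of PLK2, averaged 36.95 ± 2.95 CPM in libraries labelled shHDAC5 and 14.77 ± 0.679 CPM in those labelled shControl (log2 fold change 1.33). BTG1, an antiproliferative protein that binds the CCR4-NOT deadenylase, averaged 170.8 ± 0.989 CPM in libraries labelled shHDAC5 and 87.52 ± 3.24 CPM in those labelled shControl (log2 fold change 0.96). SFN, stratifin, which holds cyclin B complexes in the cytoplasm, rose less, with a log2 fold change of 0.36 ± 0.0364 (SE).

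BTG2 (ENSG00000159388, chr1:203305519-203309602), the close relative of BTG1, had 23.05, 23.59 and 23.76 CPM in the libraries labelled shHDAC5, against 27.54, 24.66 and 29.21 CPM in those labelled shControl. The groups did not overlap, but the gap between the nearest libraries was small (log2 fold change -0.21 ± 0.0732 SE, adjusted p = 0.00554, edgeR). The call was lost with DESeq2 at a similar size (-0.18, adjusted p = 0.0592), with upper-quartile factors (-0.07, adjusted p = 0.345) and with total counts (-0.03, adjusted p = 0.71).

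Among the repair genes, RRM2B rose (25%, against 44.8% of all genes tested) and XPC, DDB2 and POLH fell (75%, against 39.9%). RRM2B (ENSG00000048392, chr8:102204501-102238961), the ribonucleotide reductase subunit that supplies nucleotides outside S phase, had 68.91, 69.85 and 68.6 CPM in the libraries labelled shHDAC5, against 39.26, 37.73 and 39.47 CPM in those labelled shControl. DDB2 (ENSG00000134574, chr11:47214454-47239217), which recognises ultraviolet damage in chromatin and whose promoter is shown above, had 87.53, 89.37 and 87.72 CPM in the libraries labelled shHDAC5, against 168.6, 168.0 and 172.3 CPM in those labelled shControl. Neither gene's groups overlapped, and libraries of one label lay within a few CPM of each other. The log2 fold change was 0.83 ± 0.0509 for RRM2B (SE, adjusted p = 7.62e-30, edgeR) and -0.94 ± 0.0355 for DDB2 (SE, adjusted p = 2.52e-47, edgeR). XPC, the lesion sensor of global nucleotide excision repair, fell by 0.36 ± 0.0549 (SE) on the log2 scale. POLH, the translesion DNA polymerase eta, fell by 0.24 ± 0.052 (SE), a call lost with upper-quartile factors (adjusted p = 0.0764, edgeR) and total counts (adjusted p = 0.336, edgeR).

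Of the 5 redox and metabolism genes, 3 rose, TP53I3 fell and SESN2 did not pass the test. That is 60% higher and 20% lower, against 44.8% and 39.9% of all genes tested. TIGAR (ENSG00000078237, chr12:4321213-4360028), a sugar bisphosphatase that lowers glycolytic flux, had 11.35, 11.68 and 10.73 CPM in the libraries labelled shHDAC5, against 2.96, 2.026 and 1.448 CPM in those labelled shControl. It rested on 588 counts in all libraries labelled shHDAC5 and 99 in all labelled shControl, without overlap (log2 fold change 2.39 ± 0.164 SE, adjusted p = 2.27e-26, edgeR). FDXR, the mitochondrial ferredoxin reductase, averaged 78.28 ± 2.96 CPM in libraries labelled shHDAC5 and 28.99 ± 1.14 CPM in those labelled shControl (SD, n = 3 each), a log2 fold change of 1.43. SESN1, a sestrin that restrains the growth kinase complex mTORC1, averaged 22.59 ± 0.742 CPM in libraries labelled shHDAC5 and 9.835 ± 1.35 CPM in those labelled shControl, a log2 fold change of 1.20. SESN2 (ENSG00000130766, chr1:28259518-28282491), the sestrin that senses leucine, had 34.04, 32.23 and 34.16 CPM in the libraries labelled shHDAC5, against 35.07, 31.79 and 33.92 CPM in those labelled shControl. The ranges of SESN2 overlapped almost entirely (log2 fold change -0.0065 ± 0.0634 SE, adjusted p = 0.925, edgeR), and its sign turned under other scalings.

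TP53I3 (ENSG00000115129, chr2:24077433-24084834), a quinone oxidoreductase also called PIG3, had 3.605, 2.92 and 3.187 CPM in the libraries labelled shHDAC5, against 6.243, 4.821 and 4.406 CPM in those labelled shControl. Its groups did not overlap, at 169 counts in all libraries labelled shHDAC5 and 239 in all labelled shControl (log2 fold change -0.67 ± 0.178 SE, adjusted p = 0.000382, edgeR).

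Of the 9 genes linked to death, survival and mitochondria, 6 passed the filter on low counts: 2 rose, 2 fell, and TRIAP1 and ZMAT3 did not pass the test. The share was 33.3% each way, against 44.8% higher and 39.9% lower over all genes tested. TP53I11 (ENSG00000175274, chr11:44932348-44951306), a p53-induced gene of poorly known function whose promoter is shown above, had 559, 485 and 553 counts in the libraries labelled shHDAC5, against 3, 0 and 3 counts in those labelled shControl. The groups did not overlap, and the ratio of depth-scaled summed counts was 236.4 (95% interval 108 to 645, counting error only). It passed the filter on low counts only through the libraries labelled shHDAC5. PHLDA3 (ENSG00000174307, chr1:201464278-201469188), which competes with AKT for membrane lipids and so dampens survival signalling, had 5.792, 6.355 and 5.814 CPM in the libraries labelled shHDAC5, against 28.9, 27.67 and 29.81 CPM in those labelled shControl. All libraries labelled shHDAC5 were below all labelled shControl, and PHLDA3 fell by 2.27 ± 0.0976 (SE) on the log2 scale (adjusted p = 3.88e-42, edgeR). PERP, a tetraspan membrane protein of desmosomes that also takes part in p53-dependent apoptosis, averaged 184.7 ± 5.36 CPM in libraries labelled shHDAC5 and 505.8 ± 14.5 CPM in those labelled shControl (SD, n = 3 each), a log2 fold change of -1.45 ± 0.0283 (SE). AEN, a nuclease that degrades DNA in apoptosis, rose with a log2 fold change of 0.32 ± 0.0617 (SE).

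TRIAP1 (ENSG00000170855, chr12:120443964-120446384), an inhibitor of apoptosis that carries lipid between mitochondrial membranes, had 22.58, 21.76 and 23.76 CPM in the libraries labelled shHDAC5, against 19.37, 23.13 and 22.69 CPM in those labelled shControl. ZMAT3 (ENSG00000172667, chr3:179017223-179072513), an RNA-binding regulator of splicing, had 45.45, 46.83 and 47.19 CPM in the libraries labelled shHDAC5, against 47.24, 43.94 and 44.12 CPM in those labelled shControl. Both genes' groups overlapped, with a log2 fold change of 0.06 ± 0.0785 for TRIAP1 (SE, adjusted p = 0.443, edgeR) and 0.04 ± 0.0544 for ZMAT3 (SE, adjusted p = 0.449, edgeR). Both passed the threshold with upper-quartile factors (log2 fold changes 0.20 and 0.18) and total counts (0.25 and 0.23).

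The other 3 genes of this group were too low to test. SPATA18, which acts in mitochondrial quality control, had 0 counts in every library labelled shHDAC5 and 0, 1 and 0 in those labelled shControl. TP53INP1, a stress-induced nuclear protein linked to autophagy, had 0, 2 and 2 counts in the libraries labelled shHDAC5 and 3, 2 and 2 in those labelled shControl. EDA2R, a receptor of the TNF receptor family, had 10, 6 and 2 counts in the libraries labelled shHDAC5 and 0 in every library labelled shControl. A difference in SPATA18 or TP53INP1 was not detectable at this depth.

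Of the 4 secreted and surface proteins, CD82 and EPHA2 rose (50%, against 44.8% of all genes tested) and GDF15 and NINJ1 did not pass the test. CD82 (ENSG00000085117, chr11:44564409-44620358), a tetraspanin known as a suppressor of metastasis, had 71.34, 65.9 and 68.65 CPM in the libraries labelled shHDAC5, against 40.48, 36.68 and 37.24 CPM in those labelled shControl. The groups did not overlap (log2 fold change 0.85 ± 0.0522 SE, adjusted p = 1.13e-29, edgeR). EPHA2, an ephrin receptor tyrosine kinase, rose less, averaging 191.8 ± 7.23 CPM in libraries labelled shHDAC5 and 166.7 ± 1.55 CPM in those labelled shControl (log2 fold change 0.20). GDF15 (ENSG00000130513, chr19:18386158-18389176), a stress cytokine of the TGF-beta family, had 25.06, 24.28 and 25.05 CPM in the libraries labelled shHDAC5, against 25.55, 28.64 and 27.52 CPM in those labelled shControl. NINJ1 (ENSG00000131669, chr9:93121496-93134251), an adhesion protein that ruptures the plasma membrane of dying cells, had 22.34, 23.02 and 23.59 CPM in the libraries labelled shHDAC5, against 24.84, 24.8 and 25.77 CPM in those labelled shControl. In both genes the libraries labelled shHDAC5 lay below those labelled shControl by a narrow margin. The log2 fold change was -0.13 ± 0.0715 for GDF15 (SE, adjusted p = 0.0732, edgeR) and -0.13 ± 0.0738 for NINJ1 (SE, adjusted p = 0.0945, edgeR), and both turned positive with upper-quartile factors and total counts. GDF15 passed the threshold without the first library labelled shControl (-0.20, adjusted p = 0.0196, edgeR) and without a filter on low counts (-0.18, adjusted p = 0.0422, edgeR).

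The second comparison asked how closely related members moved against each other within a library, which does not depend on scaling between libraries. Ratios of counts per kilobase of gene model were taken for 4 pairs. The groups did not overlap in any pair, and the exact two-sided permutation test gave p = 0.1 for each (0.1 also after adjustment over the 4 pairs), the smallest that 3 against 3 libraries allow. The log2 ratio of MDM2 to MDM4 was -0.46, -0.39 and -0.33 in the libraries labelled shHDAC5, against 0.03, -0.12 and -0.09 in those labelled shControl. The log2 ratio of BTG1 to BTG2 was 2.07, 2.05 and 2.02 in the libraries labelled shHDAC5, against 0.86, 0.95 and 0.81 in those labelled shControl. In each of these pairs the 3 ratios of a group lay closer together than the groups did. SESN1 to SESN2 had log2 ratios of -1.70, -1.53 and -1.68 in the libraries labelled shHDAC5, against -3.15, -2.69 and -2.71 in those labelled shControl. PLK2 to PLK3 had log2 ratios of 1.30, 1.29 and 1.13 in the libraries labelled shHDAC5, against -0.20, -0.13 and -0.06 in those labelled shControl. The difference between group means, libraries labelled shHDAC5 minus those labelled shControl, was -0.33 for MDM2 to MDM4 and 1.17, 1.21 and 1.37 for the BTG, SESN and PLK pairs.

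**Figure D3:**
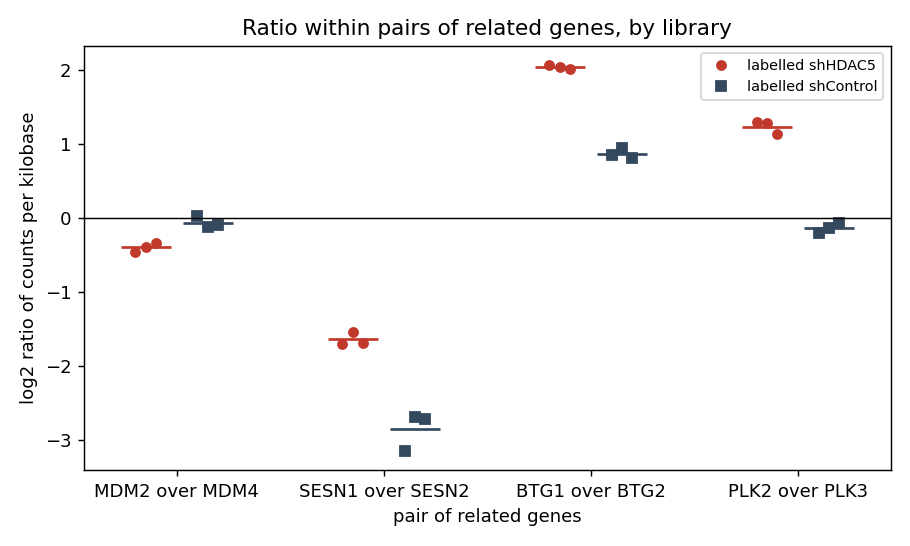
The log2 ratio of counts per kilobase within 4 pairs of related genes is plotted for each library, with libraries labelled shHDAC5 left of those labelled shControl and a bar at each mean. The groups are apart in every pair, by -0.33 for MDM2 to MDM4 and by 1.17 to 1.37 for the other pairs.

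Other genes of the pathway were followed through 3 further lists. Of 32 other direct p53 targets, 30 were tested, and 14 rose, 14 fell and BBC3 and ASCC3 did not pass the test (46.7% each way, median log2 fold change 0.09, against 44.8%, 39.9% and 0.09 over all genes). TP53AIP1, counted among the 14 that rose, passed the filter only through the libraries labelled shHDAC5. THBS1, the matrix protein thrombospondin-1, averaged 140.5 ± 3.69 CPM in libraries labelled shHDAC5 and 20.22 ± 1.25 CPM in those labelled shControl (SD, n = 3 each), a log2 fold change of 2.79. The TRAIL receptors TNFRSF10D, a decoy, and TNFRSF10B, a death receptor, rose with log2 fold changes of 1.66 and 0.66. The death receptor FAS fell to 1.815 ± 0.139 CPM in libraries labelled shHDAC5, against 19.34 ± 1.6 CPM in those labelled shControl, a log2 fold change of -3.41. DRAM1, a lysosomal regulator of autophagy, and DDIT4, an inhibitor of mTORC1, fell by 3.11 and 2.16 on the log2 scale. CDKN1A, which encodes the cyclin-dependent kinase inhibitor p21 and was picked out after its values were seen, rose with a log2 fold change of 0.49 ± 0.0312 (SE).

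Of 25 regulators of p53, 5 rose (20%) and 20 fell (80%), against 44.8% and 39.9% of all genes. Their median log2 fold change was -0.71, against 0.09 over all genes. PPP1R13B, a cofactor that directs p53 to death genes, averaged 64.75 ± 0.445 CPM in libraries labelled shHDAC5 and 18.7 ± 0.706 CPM in those labelled shControl (SD, n = 3 each), a log2 fold change of 1.79. TP63, which encodes the p53 relative p63, had 233, 286 and 230 counts in the libraries labelled shHDAC5 and 7, 3 and 12 counts in those labelled shControl. The ratio of its depth-scaled sums was 30.23 (95% interval 19.8 to 48.5, counting error only), and it too was tested only because of the libraries labelled shHDAC5. EP300, an acetyltransferase of p53 and histones, rose with a log2 fold change of 0.44. SETD7, a lysine methyltransferase, fell by 3.74 on the log2 scale. CDKN2A, whose ARF product inhibits MDM2, averaged 13.73 ± 0.648 CPM in libraries labelled shHDAC5 and 149.5 ± 4.78 CPM in those labelled shControl, a log2 fold change of -3.45. BxPC-3 is known to carry a homozygous deletion of CDKN2A, so these counts go against the labelled cell line.

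All 18 genes known to be lowered through p21 and the DREAM repressor complex fell, against 39.9% of all genes. Their median log2 fold change was -2.25, against 0.09 over all genes, and 16 of them (88.9%) fell at least 2-fold, against 20.1% of all genes. MYBL2, a transcription factor of cycling cells, averaged 55.62 ± 1.4 CPM in libraries labelled shHDAC5 and 320.4 ± 7 CPM in those labelled shControl (SD, n = 3 each). CCNB1, cyclin B1, averaged 43.13 ± 1.91 CPM in libraries labelled shHDAC5 and 203.9 ± 1.64 CPM in those labelled shControl. FOXM1, a driver of mitotic genes, averaged 8.349 ± 0.581 CPM in libraries labelled shHDAC5 and 102.3 ± 4.95 CPM in those labelled shControl. These genes are also general markers of proliferation.

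**Figure D4:**
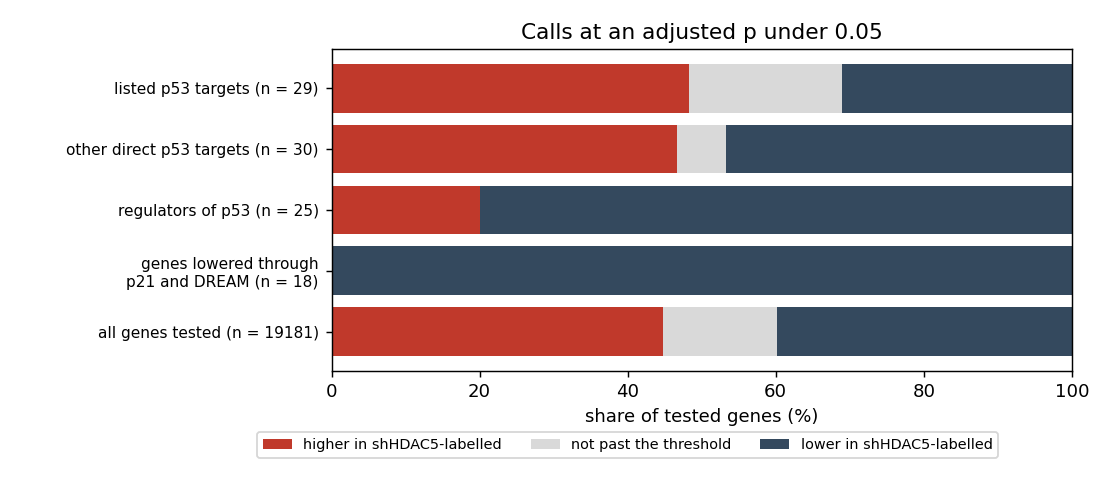
Stacked bars give the percent of tested genes that were higher, not past the threshold and lower in the libraries labelled shHDAC5, for the members (listed p53 targets), the other lists and all genes tested. The members, at 48.3% higher and 31% lower, lie near all genes, at 44.8% and 39.9%, and the list of genes lowered through p21 and DREAM is at 100% lower.

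The third comparison asked where GATA1 peaks in PANC-1 lay relative to the same genes. A member was counted when the summit of a deposited peak lay within 1 kb of either end of its gene. The list labelled shHDAC5 had such a peak at 12 of the 32 members (37.5%), against 33.9% of 20037 coding genes, and the list labelled shControl at 18 (56.2%), against 52.1%. With 1 list per condition there is no test between them, and both shares lie near those of all coding genes. With the window widened to 5 kb both lists had a peak at 24 members (77.3% and 70.6% of coding genes in the lists labelled shHDAC5 and shControl), and with the whole gene body counted at 21 and 25 (77.2% and 74.0%). On the autosomes, X and Y the list labelled shHDAC5 held 249139 peaks with a median enrichment over the caller's background, the authors' own value per peak, of 2.33-fold, and the list labelled shControl 121070 peaks with 2.73-fold. Only 1045 peaks of the list labelled shHDAC5 and 6176 of the list labelled shControl had an authors' q of at most 0.05. The peak names inside the files also go against the labels, since names in the list labelled shHDAC5 carry the tag NC and those in the list labelled shControl the tag SAHA, so the condition behind each list is uncertain.

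AEN, EPHA2, GDF15, POLH, SESN2 and TP53I11 had a peak in both lists (18.8% of members, against 19.7% of coding genes). The peaks counted need not be at the same site. In EPHA2 the summit lay 31023 bases after the start in the list labelled shHDAC5 and 338 bases after it in the list labelled shControl. BTG1, CD82, MDM4, NINJ1, SESN1 and TRIAP1 had a peak in the list labelled shHDAC5 alone (18.8%, against 14.2% of coding genes), and 12 members in the list labelled shControl alone (37.5%, against 32.3%), among them PLK2, GADD45A, PERP and XPC. The other 8 members, CCNG1, DDB2, EDA2R, MDM2, PHLDA3, PPM1D, SPATA18 and TIGAR, had none in either list (25%, against 33.8%). At the authors' q of at most 0.05, none of the members kept a peak in the list labelled shHDAC5 (0.255% of coding genes did), and 2 did in the list labelled shControl (6.5% of coding genes). These were PLK2, whose peak at chr5:58459562-58460202 (hg38) had its summit 47 bases after the RefSeq start, a 5.02-fold enrichment and a −log10 q of 3.06, and XPC, whose peak at chr3:14178202-14178540 had its summit 225 bases after the start, a 4.82-fold enrichment and a −log10 q of 2.79. POLH, with summits at -561 and -686 bases from its start in the lists labelled shHDAC5 and shControl, had enrichments of 3.75-fold and 2.54-fold. TP53I11 had peaks with summits at chr11:44950520 and chr11:44951056 in the lists labelled shHDAC5 and shControl, both of 2.47-fold enrichment. They lay -360 and -173 bases from the nearest of its listed starts, which was a different start in each list. The promoter printed above belongs to the start nearest the summit in the list labelled shControl. In the same order of lists, the −log10 q of these peaks was 0.741 and 0.0 for POLH, and 0.0 in both for TP53I11.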

How the data were processed

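RNA came from 6 libraries labelled BxPC-3 and GATA1 peaks from samples labelled PANC-1. Samples were grouped by the treatment in their labels. The RNA table holds whole-number counts per Ensembl gene as deposited by the authors, without normalization. Each peak list gives fold enrichment as a ratio and the −log10 of a q-value, deposited by the authors; pooling of replicates is not stated there. The submitters' processing notes name MACS2 2.2.7.1, deepTools 3.5.0, featureCounts 2.0.1, fastp 0.23.2, FastQC 0.11.9 and hg38. No aligner, annotation release or strand setting was given in the sources used, so reads of overlapping and antisense genes cannot be told apart.

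Counts were tested with edgeR 4.0.16 (R 4.3.3, limma 3.58.1): TMM scaling, filterByExpr (minimum count 10), glmQLFit and glmQLFTest, Benjamini-Hochberg adjustment over all 19181 genes and a threshold of 0.05. The procedure was tested on simulated counts in which few genes changed, as many up as down. That could not check the scaling in a table with most genes called. SE is the log2 fold change divided by the square root of F. Ratios within pairs used a prior count of 0.5. Levels per kilobase used the length column of the table. Peak overlap and motifs were computed with Python 3.11.15 and pandas 2.3.3, with gene ends from RefSeq genes and promoters from RefSeq (GRCh38.p14). Symbols were found for 61369 of 61541 gene IDs. Promoters were found for 28 of 32 members. Alternatives were DESeq2 1.42.0, other scalings, filters and thresholds, a replicate block, leaving out each library, and other peak windows.

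The members, roles, lists, tests and alternatives were chosen with earlier results of these data known; the motif search and its mismatch allowance were chosen after the peak files and promoter table were seen. Values in every library are given for the members of each role with the largest rise and fall and for those that were tested and not called; in other lists, named genes are the 3 of smallest adjusted p among those called in each direction. Promoters are shown for members with a complete p53 element or a summit within 1 kb of the start in both lists. Replicates of a group differed by more than sampling noise. A gene of the other lists that the naming rule would give is not reported here.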

Additional observations from a re-analysis of the deposited data

How the results depend on the processing

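With a change of at least 2-fold required, 7 members rose and 2 fell. The median log2 fold change of the members was 0.20 with upper-quartile factors and 0.25 with total counts. SESN2, with -0.0065 and no call, turned to 0.0249 with DESeq2, 0.0244 with DESeq2's size factors in edgeR, 0.134 with upper-quartile factors (adjusted p = 0.0422), 0.177 with total counts (adjusted p = 0.00727) and 0.0158 with a filter of 1 CPM. GDF15 turned to 0.0059 and 0.0492, and NINJ1 to 0.0109 and 0.0542, with upper-quartile factors and total counts. Leaving out 1 library in turn gave -0.0613 to 0.0126 for SESN2, -0.005 to 0.074 for CCNG1 and -0.0291 to 0.0892 for TRIAP1, none of them called. For the members it left 14 that rose and 9 to 10 that fell. Within 5 kb of a gene end the peak list labelled shHDAC5 had a summit at 24 members (77.3% of coding genes), and in or near the gene at 21 (77.2%). At q of at most 0.05 it had 0 and the list labelled shControl 2. The cause of these shifts was not tested.

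With the replicate number as a block (replicate block), 14 members rose and 9 fell, and all 23 calls remained. Same-numbered libraries did not deviate together (correlations -0.0156, 0.00321 and 0.0102), so the number is not taken as a pairing. DESeq2 gave 14 members that rose and 8 that fell. Depth limits SPATA18, TP53INP1 and EDA2R, which had at most 10 counts in any library.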
